A study of Mus musculus with 8 samples.

Results

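10 immediate early genes were followed across the liver cells of mice treated with β-glucan (BG) and of control mice: the AP-1 subunit genes Fos, Fosb, Jun, Junb and Jund, the related factor Atf3, the zinc finger factor Egr1, the nuclear receptor Nr4a1, the growth factor response gene Ier2 and the phosphatase gene Dusp1. They were chosen by symbol, and each of the 10 symbols matched 1 of the 32285 genes listed in every library. The study prepared 1 scRNAseq library from the liver of each of 8 mice, all female C57BL/6J and 9 weeks old. The 4 BG mice (replicates 5 to 8) had received 1.2 mg of odetiglucan (Imprime PGG), a soluble yeast glucan, intravenously 2 days before the liver was taken, and the 4 control mice (replicates 1 to 4) were untreated, with no vehicle injection named in the sources used here. Each perfused liver was minced and digested with collagenase and DNase, dead cells were removed, and CD45+ cells were pooled with further cells taken from the unbound fraction over a density gradient.

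AP-1 is a family of dimers in which a Jun protein pairs with a Fos protein, with another Jun protein or with an ATF protein such as Atf3. Its genes, together with Egr1, Nr4a1 and Ier2, are switched on within minutes by MAP kinase, serum response factor and CREB signaling, without new protein synthesis, and Dusp1 encodes a phosphatase that switches MAP kinases off again. In immune cells these factors take part in the response to receptor engagement, and the same genes are known to be induced while tissue is digested to single cells. All 8 livers were digested, so RNA made in the living liver and RNA made during digestion cannot be told apart in these libraries.

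Promoters of immediate early genes are known to hold sites for these signals. RefSeq promoter windows (GRCm38.p6) were found for 8 of the 10 genes, with no entry for Egr1 and Ier2. The 150 bases before the start are shown for Fos, Fosb and Jun, AP-1 genes whose RNA fell in several cell classes. Jund RNA fell in several classes too, but its window held none of the motifs searched below and is not shown. Also shown are Junb, whose RNA was not called lower in any class, and Dusp1, which holds the full cyclic AMP response element (CRE). Each sequence runs 5′ to 3′ on the gene's strand. Capitals mark a CRE or its half-site, the AP-1 site of the Jun type and a TATA box.
Fos, chr12:85473740-85473889, plus strand: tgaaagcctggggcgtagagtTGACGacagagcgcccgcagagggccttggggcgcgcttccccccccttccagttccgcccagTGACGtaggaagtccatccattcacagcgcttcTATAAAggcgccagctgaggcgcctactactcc
Fosb, chr7:19310046-19310195, minus strand: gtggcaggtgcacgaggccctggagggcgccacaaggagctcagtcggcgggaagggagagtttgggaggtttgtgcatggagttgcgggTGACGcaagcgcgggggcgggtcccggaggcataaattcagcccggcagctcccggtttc
Jun, chr4:95052223-95052372, minus strand: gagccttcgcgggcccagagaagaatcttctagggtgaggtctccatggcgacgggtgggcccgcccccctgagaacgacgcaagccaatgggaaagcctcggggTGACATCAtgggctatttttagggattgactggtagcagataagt
Junb, chr8:84978749-84978898, minus strand: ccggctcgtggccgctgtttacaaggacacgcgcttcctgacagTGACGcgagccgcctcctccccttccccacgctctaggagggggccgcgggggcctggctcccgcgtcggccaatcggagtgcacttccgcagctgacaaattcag
Dusp1, chr17:26508473-26508622, minus strand: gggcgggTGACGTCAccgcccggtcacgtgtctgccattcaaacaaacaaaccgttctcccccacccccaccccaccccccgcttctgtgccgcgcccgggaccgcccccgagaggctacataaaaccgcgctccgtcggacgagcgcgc

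Motifs were searched on both strands in the 250 bases before the start. The CRE half-site TGACG was found in 6 of the 8 windows (Fos, Fosb, Junb, Atf3, Nr4a1 and Dusp1), against 17.8% of 32851 windows of all genes. In Fos it lay at -66 to -62 and at -129 to -125 from the start, with the TATA box TATAAA at -33 to -28. The full CRE, TGACGTCA, which contains the half-site, was found in Dusp1 at -143 to -136 and in 1.55% of all windows. Jun held TGACATCA at -45 to -38, a sequence found in 2.93% of all windows, and Fosb and Nr4a1 held the Egr site GCGNGGGCG, found in 4.70%. None of the 8 windows held the AP-1 site TGANTCA (6.75% of all windows), the Nr4a site AAAGGTCA (1.34%) or the CArG box bound by serum response factor (1.47%). Bases further upstream were not searched, nor was any part of Egr1 and Ier2, so such sites may lie outside these windows. The Jund window ended at position 70697738 of chromosome 8, apart from the annotated start of the gene at 70698949. Its lack of matches therefore does not describe the bases next to that start. The windows of Dusp1, Atf3 and Nr4a1 also lay apart from the annotated start of their gene. On the minus strand, the Dusp1 window began at 26508473 with the annotated start at 26562128, and the Atf3 window at 191183334 with the start at 191218039. The Nr4a1 window ended at 101266845, with the annotated start at 101254269. Distances given above are counted from the start that belongs to each RefSeq window. These matches describe letters only, and none was tested as a binding site.

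Levels were compared within classes of cells. The libraries held between 44184117 and 60654583 unique molecular identifiers (UMIs, each standing for 1 captured RNA molecule) in BG and between 39612380 and 46211839 UMIs in control mice. Cells with 200 to 2500 detected genes and at most 30% mitochondrial UMIs were kept, 20624 from BG and 27841 from control mice, with a median of 2513 to 3589.5 UMIs per cell in BG and 2321.5 to 2928 in control libraries. BG replicate 5 stood apart, with 66.6% mitochondrial UMIs over all its barcodes against 30.5% to 41.9% in the other 7 libraries, and each pair of libraries shared 5 to 26 barcode sequences. A cell joined a class when it held UMIs of at least 3 (plasmacytoid dendritic cells, 4) markers of that class and, apart from the following rules, did not pass the gate of another. Cells that passed the gates of KCs and monocytes, of monocytes and cDCs, or of cDCs and pDCs went to the class with more markers. NK cells could hold T cell markers, but fewer than 3. T cells with 3 or more NK cell and ILC1 markers needed at least 4 T cell markers. Each class name thus means cells that resemble that type by its markers. This gave, in BG and control mice, 8903 and 10876 T cells, 1135 and 1374 NK cells and ILC1, 2283 and 5924 B cells, 176 and 141 Kupffer cells (KCs), 298 and 279 monocytes and monocyte-derived macrophages, 132 and 177 conventional dendritic cells (cDCs), 493 and 656 plasmacytoid dendritic cells (pDCs), 75 and 91 neutrophils, and 2648 and 2350 liver sinusoidal endothelial cells (LSECs). A further 13.6% of kept cells still passed more than 1 gate after these rules and 7.18% passed none, and these were left out. Control replicate 1 held 8 KCs and was left out of that class. UMIs were summed per mouse and class, and a level is given below as counts per 1000000 UMIs (CPM) after TMM scaling within the class. Genes counted as called had an adjusted p (edgeR's quasi-likelihood test, Benjamini-Hochberg adjustment over all genes tested in the class) under 0.05 and a log2 fold change, BG over control, under -0.5 or over 0.5.

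In control livers the level of these genes depended on the class. Fos averaged 3700 ± 798 CPM in neutrophils and 3104 ± 178 CPM in monocytes and monocyte-derived macrophages (SD, n = 4 each), and the 2 ranges overlapped. It averaged 2348 ± 395 CPM in cDCs (n = 4) and 2207 ± 530 CPM in KCs (n = 3), whose ranges also overlapped. B cells followed with 1448 ± 54.2 CPM, NK cells with 1122 ± 42.1, T cells with 1025 ± 20.1, pDCs with 916 ± 51.6 and LSECs with 597 ± 64.0 CPM (n = 4 each), and none of these 5 ranges overlapped with the next. Fos thus had its lowest control level in LSECs and its highest in myeloid cells.

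Other members had an order of their own. Jund was highest in B cells (2531 ± 123 CPM) and neutrophils (2476 ± 337), which overlapped, and lowest in LSECs (549 ± 56.9 CPM, n = 4 each). Atf3 averaged 896 ± 192 CPM in control monocytes and monocyte-derived macrophages, against 16.3 ± 7.09 CPM in T cells. Egr1 averaged 1330 ± 229 CPM in control KCs (n = 3), above every class but neutrophils (2486 ± 821 CPM), and 22.8 ± 15.8 CPM in pDCs, its lowest level. Neutrophils also had the highest control levels of Junb (6896 ± 469 CPM) and Dusp1 (5514 ± 871 CPM), from 91 cells.

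T cells held less RNA of the AP-1 subunits after BG. Fos, Fosb, Jun and Jund fell, and the log2 fold changes of the other 6 members were below 0 without passing the test. These 4 of 10 members stand against 0.259% of the 11204 genes tested in T cells that were called lower, and the median log2 fold change of the 10 members was -0.31, against -0.01 over all tested genes. The 10 members summed to between 5058 and 5999 CPM in BG T cells and between 7010 and 7759 CPM in control T cells.

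Fos read 797, 572, 723 and 624 CPM in T cells of the BG mice (replicates 5 to 8), against 1035, 1029, 996 and 1042 CPM in those of the control mice (replicates 1 to 4). Every BG mouse lay below the lowest control mouse, and the control mice were closer to each other than the BG mice were. The log2 fold change was -0.59 ± 0.10 (SE, edgeR adjusted p = 0.00247). Fosb, a second Fos subunit that binds DNA only with a partner, read 510, 444, 465 and 461 CPM in BG and 702, 668, 734 and 777 CPM in control T cells. The groups did not overlap here either (-0.62 ± 0.08, edgeR adjusted p = 0.000351).

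Jun encodes the main partner of the Fos proteins. It read 645, 618, 665 and 658 CPM in BG T cells, against 905, 925, 1069 and 1176 CPM in control T cells. The BG mice lay within a narrow band below all control mice, and the fold change was -0.66 ± 0.09 (edgeR adjusted p = 0.000746). Jund, the Jun gene that is expressed most steadily in resting cells, read 1055, 931, 954 and 886 CPM in BG and 1392, 1264, 1344 and 1448 CPM in control T cells. Its groups did not overlap (-0.51 ± 0.08, edgeR adjusted p = 0.00195), which makes 4 of 10 members with every BG mouse below every control mouse, against 4.12% of the tested genes. This change lay at the fold limit: without control replicate 4 it was -0.48, without BG replicate 6 -0.50 and without BG replicate 8 -0.47, each just inside the limit with an edgeR adjusted p of at most 0.0109. It was -0.48 with cells of a second gate kept (edgeR adjusted p = 0.00501), which left 3 called members.

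Among the T cell members that were not called, Junb, a Jun protein that restrains the activity of Jun in many settings, read 1742, 1517, 1429 and 1356 CPM in BG and 2186, 1993, 1645 and 1628 CPM in control T cells. The groups overlapped, with BG replicate 5 above 2 of the control mice (-0.30 ± 0.11, edgeR adjusted p = 0.152). Dusp1 had a fold change of -0.30 ± 0.11 (edgeR adjusted p = 0.156) and Ier2 of -0.21 ± 0.08 (edgeR adjusted p = 0.185). Egr1 (-0.17 ± 0.14), Nr4a1 (-0.13 ± 0.10) and Atf3 (-0.31 ± 0.28) had edgeR adjusted p from 0.538 to 0.615. Among the members followed here, the 4 called genes are thus the Fos and Jun subunits other than Junb.

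The same comparison was made in 3 subsets gated from the T cells. In CD4 T cells (897 from BG and 865 from control mice) 5 of 10 members fell, against 0.601% of 6156 tested genes. They were Fos (-0.65 ± 0.12), Fosb (-0.50 ± 0.12), Jun (-0.60 ± 0.11) and Jund (-0.52 ± 0.10), with edgeR adjusted p from 0.000652 to 0.0153, and Atf3. Atf3, a stress-induced factor that pairs with Jun proteins, read 17.0, 2.62, 8.35 and 8.10 CPM in BG and 17.3, 32.2, 20.1 and 51.4 CPM in control CD4 T cells. These values rest on 2 to 9 UMIs per BG mouse and 11 to 24 per control mouse, and the highest BG mouse lay just under the lowest control mouse. The 5 genes did not overlap between the groups, against 3.02% of the tested genes, and Atf3 had a log2 fold change of -1.71 ± 0.39 (SE, edgeR adjusted p = 0.00724). Leaving out 1 mouse gave 2 to 5 called members, and 2 were left without control replicate 4, where Atf3, Fosb and Jund were no longer called (-1.38, -0.44 and -0.45, edgeR adjusted p = 0.0653, 0.0878 and 0.0174). Without BG replicate 6, Fosb (-0.39) and Jund (-0.49) were lost. Fosb was also lost without control replicate 3 (-0.45) and Jund without BG replicate 8 (-0.50, inside the limit before rounding). Among cells with at most 10% mitochondrial UMIs, Jun (-0.38, edgeR adjusted p = 0.484) and Jund (-0.57, edgeR adjusted p = 0.0929) were not called. Fosb and Jund also lost their calls under the stricter gate (-0.46 and -0.49) and without the filter on low counts (-0.48 and -0.50, inside the limit before rounding). Pan-macrophage markers summed to 17.4 to 55.3 CPM in BG and 56.3 to 156 CPM in control CD4 T cells, and cDC markers to 39.8 to 92.2 CPM in BG and 94.6 to 151 CPM in control CD4 T cells, neither with overlap. Their part in the result, Atf3 included, was not tested.

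In CD8 T cells (972 from BG and 1299 from control mice) Fos and Fosb fell, 2 of 9 members tested, against 0.228% of 6565 genes. Fos read 700, 712, 685 and 567 CPM in BG and 918, 1045, 968 and 1031 CPM in control CD8 T cells (-0.57 ± 0.10, edgeR adjusted p = 0.00145). Fosb read 350, 389, 327 and 294 CPM in BG and 449, 623, 556 and 587 CPM in control cells (-0.70 ± 0.12, edgeR adjusted p = 0.000999). Neither gene overlapped between the groups, and 5 of the 9 did not, against 2.51% of the tested genes. Jun (-0.43 ± 0.11, edgeR adjusted p = 0.0467) and Jund (-0.48 ± 0.10, edgeR adjusted p = 0.00742) did not reach the fold limit, but Jun did without control replicate 1 (-0.51) and Jund without control replicate 2 (-0.52) or BG replicate 7 (-0.51). Among cells with at most 10% mitochondrial UMIs Fosb was no longer called (-0.62, edgeR adjusted p = 0.172) and Jund was (-0.65, edgeR adjusted p = 0.0497). CD8 T cell markers summed to 831 to 932 CPM in BG and 958 to 988 CPM in control CD8 T cells, without overlap, and their part in the result was not tested.

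In NKT-like cells (3160 from BG and 3763 from control mice) 4 of 10 members fell, against 0.301% of 9631 genes. Jun had the largest fold change, with 652, 610, 677 and 702 CPM in BG and 925, 1026, 1169 and 1303 CPM in control cells (-0.74 ± 0.10, edgeR adjusted p = 0.000159). Fosb (-0.60 ± 0.09), Fos (-0.57 ± 0.11) and Jund (-0.51 ± 0.09) followed, with edgeR adjusted p from 0.000257 to 0.0032, and in each of the 4 genes every BG mouse lay below every control mouse, as in 3.91% of the tested genes. Jund was no longer called without control replicate 4 (-0.49) or without BG replicate 6, 7 or 8 (-0.49, -0.49 and -0.48), and Fos without BG replicate 6 (-0.47), which left 2 called members. Markers of the lineage moved with these genes, and neither of the following lists overlapped between the groups. NKT-like markers summed to 873 to 1122 CPM in BG and 1197 to 1257 CPM in control cells, and T cell markers to 4751 to 4962 CPM in BG and 5021 to 5904 CPM in control cells. NK cell and ILC1 markers did not overlap either, with 686 to 770 CPM in BG and 783 to 902 CPM in control cells, and the part of these lists in the result was not tested.

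**Figure D1:**
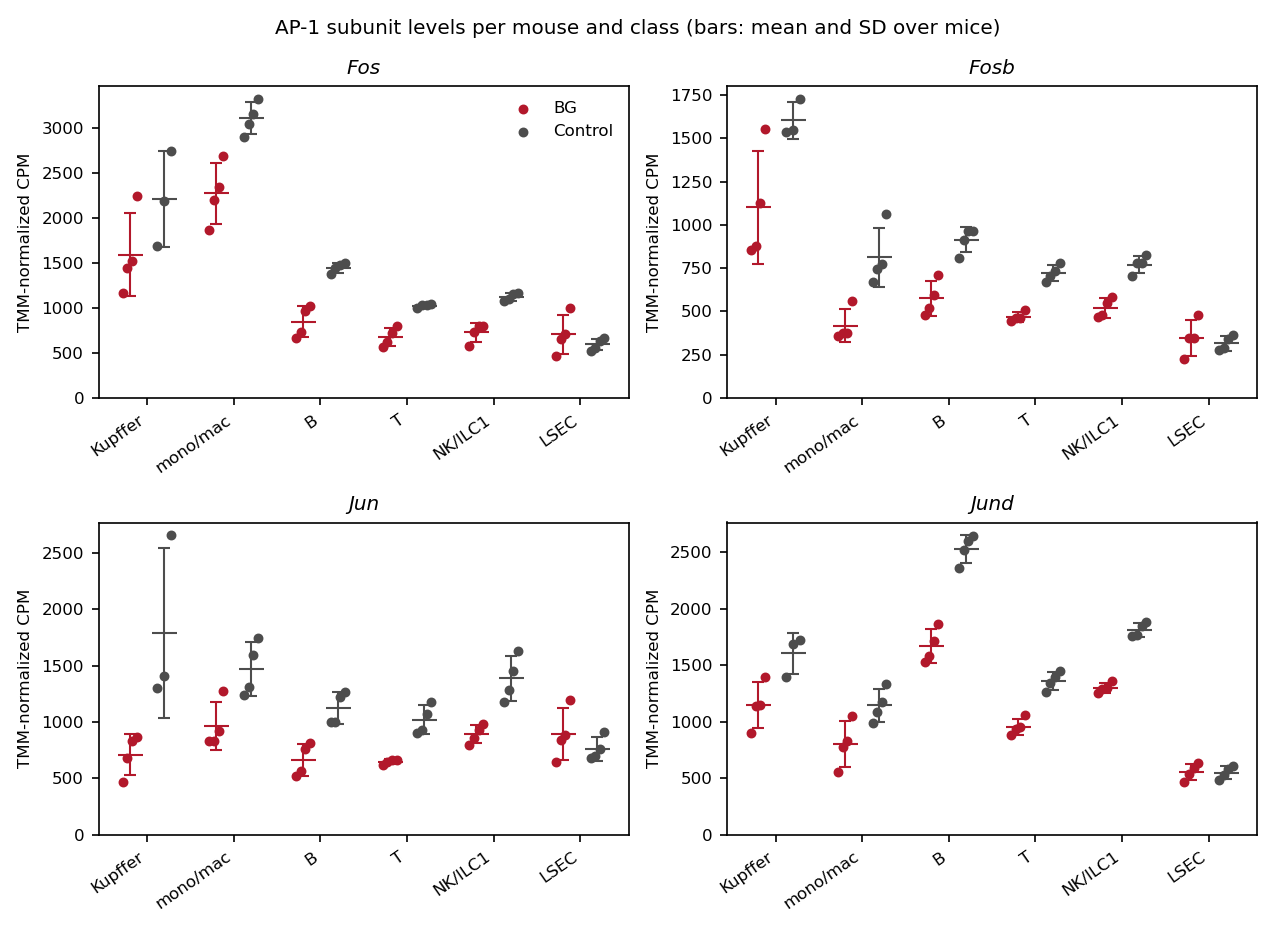
TMM-normalized CPM of Fos, Fosb, Jun and Jund (y axis) in 6 cell classes (x axis), with 1 point per mouse, BG in red to the left of control in grey, and bars for the mean and SD over mice (n = 4, or 3 for control Kupffer cells; mono/mac, monocytes and monocyte-derived macrophages). In T, B and NK cells every BG point lies below every control point for all 4 genes, as for Fos in T cells with 572 to 797 against 996 to 1042 CPM, whereas in LSECs the points of the groups overlap.

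B cells showed the largest fall of Fos among the classes in which it was called. In B cells 4 of 10 members fell, against 0.183% of 8211 tested genes. Fos read 1025, 666, 963 and 738 CPM in BG and 1374, 1441, 1479 and 1497 CPM in control B cells, so that the highest BG mouse was well below the lowest control mouse (-0.78 ± 0.11, edgeR adjusted p = 0.000139). Jun read 811, 518, 759 and 562 CPM in BG and 1002, 996, 1219 and 1269 CPM in control B cells, again without overlap (-0.77 ± 0.13, edgeR adjusted p = 0.000557).

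Fosb (-0.67 ± 0.11, edgeR adjusted p = 0.00045) and Jund (-0.60 ± 0.09, edgeR adjusted p = 0.000232) fell with them in B cells. Jund read 1865, 1585, 1718 and 1526 CPM in BG B cells, against 2517, 2364, 2603 and 2641 CPM in control B cells. The 4 calls in B cells were kept whichever mouse was left out. Every BG mouse lay below every control mouse in 5 of the 10 members, these 4 and Ier2, against 2.65% of the tested genes. Egr1 overlapped between the groups in B cells and read 252 to 310 CPM in BG and 219 to 356 CPM in control mice. Erythroid and platelet markers summed to 3.84 to 28.0 CPM in BG B cells and 85.3 to 1674 CPM in control B cells. Their part in the result was not tested.

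NK cells and ILC1 lost RNA of Fos, Fosb and Jun, 3 of 10 members, against 0.328% of 6708 genes. Fos read 799, 579, 804 and 736 CPM in BG and 1097, 1155, 1077 and 1161 CPM in control NK cells (-0.62 ± 0.10, edgeR adjusted p = 0.000449). Jun read 798, 859, 985 and 927 CPM in BG and 1180, 1285, 1449 and 1630 CPM in control NK cells (-0.63 ± 0.11, edgeR adjusted p = 0.000449). Neither overlapped between the groups, nor did Fosb (-0.56 ± 0.10, edgeR adjusted p = 0.00105). Fosb was no longer called among NK cells with at most 10% mitochondrial UMIs (-0.60, edgeR adjusted p = 0.0567), where Junb was (-0.52, edgeR adjusted p = 0.0413).

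Jund in NK cells read 1285, 1252, 1361 and 1300 CPM in BG and 1886, 1766, 1757 and 1850 CPM in control mice, without overlap, yet its fold change of -0.48 ± 0.09 stayed inside the limit (edgeR adjusted p = 0.00164). With Fos, Fosb, Jun and Dusp1 it made 5 of 10 members without overlap, against 3.49% of the tested genes. Nr4a1, a nuclear receptor induced by antigen receptor signaling in lymphocytes, went the other way in NK cells, with 56.6, 42.9, 34.9 and 49.6 CPM in BG and 24.3, 38.4, 31.5 and 33.7 CPM in control mice. The groups overlapped and the gene was not called (0.58 ± 0.20, edgeR adjusted p = 0.136). T cell markers summed to 884 to 1050 CPM in BG NK cells and to 1251 to 1458 CPM in control NK cells, and 78.6% of these cells held at least 1 UMI of such a marker. NK cell and ILC1 markers themselves summed to 4758 to 4921 CPM in BG and 5007 to 5617 CPM in control NK cells. Their part in the result was not tested.

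Kupffer cells, the resident macrophages that line the sinusoids, lost RNA of Jun. The class was small, with 26 to 70 cells per BG mouse and up to 68 per control mouse, and 8 of the 10 members were tested in it. Jun read 833, 465, 675 and 868 CPM in BG KCs, against 2660, 1410 and 1298 CPM in those of control replicates 2 to 4. Every BG mouse lay below every control mouse, and control replicate 2 was far above the other 2 control mice (-1.24 ± 0.24, edgeR adjusted p = 0.00526). This 1 of 8 members stands against 0.745% of 1610 tested genes called lower and 5.34% without overlap. Control replicate 2 gave 21 KCs. Kupffer cell markers summed to 16332 to 18456 CPM in BG KCs and to 10979 to 16942 CPM in control KCs. Their part in the result was not tested.

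All 8 tested members had negative fold changes in KCs, with a median of -0.46 against -0.01 over all tested genes. Fos read 1520, 1162, 1440 and 2241 CPM in BG and 2745, 2191 and 1686 CPM in control KCs, and BG replicate 8 lay above 2 of the 3 control mice (-0.44 ± 0.21, edgeR adjusted p = 0.329). Egr1 read 582, 852, 593 and 1360 CPM in BG and 1557, 1334 and 1099 CPM in control KCs (-0.65 ± 0.25, edgeR adjusted p = 0.212). BG replicate 8 was the highest BG mouse for both, and without it Fosb (-0.74, edgeR adjusted p = 0.0419) and Egr1 (-1.02, edgeR adjusted p = 0.013) were called along with Jun. Atf3 and Nr4a1 were not tested, with 2 to 10 and 3 to 5 UMIs per BG mouse against 9 to 28 and 4 to 10 per control mouse.

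The Kupffer cell call for Jun depended on how cells with markers of a second class were treated. With these cells kept (483 BG and 385 control cells), the fold change of Jun was -0.38 and no member was called (edgeR adjusted p = 0.52). Under a gate that required 1 more marker, and in KCs free of T cell marker UMIs, edgeR called Jun (-1.31 and -1.20).

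Monocytes and monocyte-derived macrophages lost RNA of Fosb and Jun, 2 of 10 members, against 0.453% of 3975 tested genes. Fosb read 562, 360, 377 and 374 CPM in BG and 668, 774, 1062 and 745 CPM in control mice, with BG replicate 5 above the other 3 BG mice and below all control mice (-0.98 ± 0.16, edgeR adjusted p = 0.000253). Jun read 1273, 918, 830 and 833 CPM in BG and 1308, 1242, 1746 and 1590 CPM in control mice, so that BG replicate 5 reached into the control range (-0.62 ± 0.14, edgeR adjusted p = 0.0093). Fos read 2689, 2193, 2339 and 1861 CPM in BG and 3321, 2900, 3157 and 3039 CPM in control mice. Fos and Fosb did not overlap between the groups, against 3.4% of the tested genes, but the change of Fos stayed within the limit (-0.46 ± 0.11, edgeR adjusted p = 0.0251).

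In this class Egr1 (-0.78 ± 0.23, edgeR adjusted p = 0.069) and Jund (-0.53 ± 0.15, edgeR adjusted p = 0.0526) passed the fold limit but not the adjusted p. Atf3 passed neither (-0.48 ± 0.15, edgeR adjusted p = 0.116). Nr4a1, which restrains inflammatory genes in macrophages, was the 1 member with a positive fold change, reading 386, 464, 340 and 285 CPM in BG and 260, 181, 307 and 245 CPM in control mice (0.59 ± 0.17, edgeR adjusted p = 0.067). The number of members called lower moved between 1 and 5 as single mice were left out. It was 4 without control replicate 1, 5 without control replicate 2 and 4 without BG replicate 5, and Jun was lost without BG replicate 7 (-0.56, edgeR adjusted p = 0.0637) or 8 (-0.56, edgeR adjusted p = 0.0634). EdgeR called 1.74% of the tested genes higher, and Nr4a1 joined them without control replicate 3 (0.69) or BG replicate 8 (0.70). Jun and Fosb lost their calls among the 91 BG and 117 control cells with at most 10% mitochondrial UMIs (-0.81 and -1.15, edgeR adjusted p = 0.0933 and 0.0746), and with cells of a second gate kept (-0.56 and -0.59, edgeR adjusted p = 0.0763 and 0.0913).

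LSECs, the fenestrated lining cells of the sinusoids, showed no such fall. None of the 10 members was called in either direction by edgeR, with 0 members at an unadjusted p under 0.05 for a fall and 2 for a rise, and DESeq2 called none either. The background was 0.076% of 9209 tested genes called lower and 1.17% called higher. Fold changes were positive in 9 of 10 members, with a median of 0.18. Fos read 654, 710, 997 and 468 CPM in BG and 559, 637, 527 and 663 CPM in control LSECs, and Jun 842, 886, 1199 and 642 CPM in BG and 693, 764, 678 and 912 CPM in control LSECs. In both genes BG replicate 7 was the highest and BG replicate 8 the lowest of all 8 mice (0.25 ± 0.16 and 0.23 ± 0.14, edgeR adjusted p = 0.781 and 0.78).

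**Figure D2:**
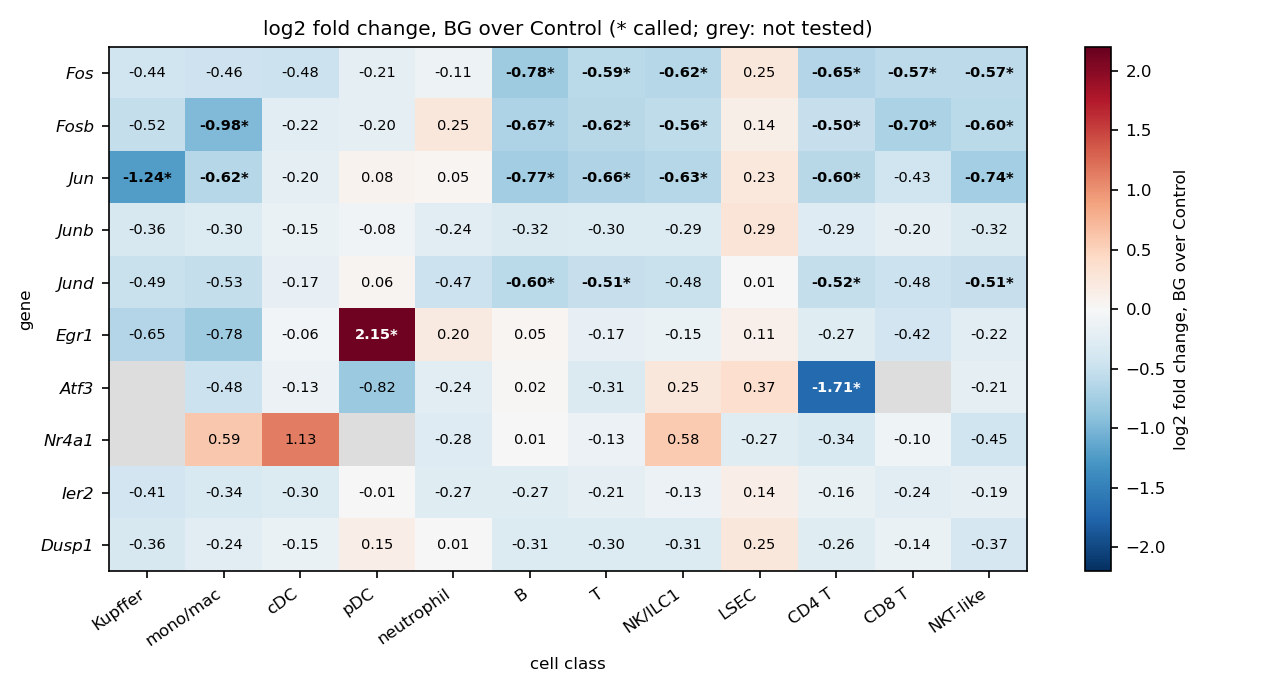
Log2 fold change of each member (rows) in each class (columns), BG over control, from edgeR. Red is higher and blue lower in BG, an asterisk marks a call, and grey marks a gene that was not tested; mono/mac stands for monocytes and monocyte-derived macrophages. Fos and Fosb are called in every T, B and NK cell column (-0.78 for Fos in B cells), the LSEC column holds no call, and Egr1 in pDCs (2.15) is the 1 call above 0.

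The difference between classes was tested directly, as the class by treatment term with mouse as a block. These comparisons with LSECs were added after the fold changes of the classes had been seen. The response of T cells differed from that of LSECs in 6 of 10 members, against 0.799% of 11892 tested genes. The differences in log2 fold change, T cells minus LSECs, were -0.89 ± 0.13 for Jun, -0.85 ± 0.14 for Fos and -0.76 ± 0.15 for Fosb (SE, edgeR adjusted p = 0.000824, 0.00274 and 0.0149). Junb (-0.60 ± 0.13), Dusp1 (-0.58 ± 0.12) and Jund (-0.55 ± 0.10) differed as well (edgeR adjusted p = 0.0166, 0.0175 and 0.00758). The count was 3 without control replicate 3 and 2 without BG replicate 7, the mouse with the highest LSEC levels. Over all genes 41 of 12068 and 25 of 12026 then differed.

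B cells differed from LSECs in 4 of 10 members, against 0.284% of 10229 genes, with -1.02 ± 0.14 for Fos and -0.9999 ± 0.13 for Jun (edgeR adjusted p = 5.28e-05 and 4.19e-05), and 4 to 6 members differed with 1 mouse left out. NK cells differed in the same 6 members as T cells, against 0.483% of 9324 genes, with -0.85 ± 0.14 for Fos and -0.83 ± 0.13 for Jun (edgeR adjusted p = 0.000803 and 0.000135), and in 2 without control replicate 3 or BG replicate 7. Over all genes 19 of 9469 and 11 of 9488 then differed. Monocytes and monocyte-derived macrophages differed in 3 members, Fos, Fosb and Jun, against 0.198% of 7589 genes, with -1.09 ± 0.20 for Fosb (edgeR adjusted p = 0.00677). That count was 1 without control replicate 1 or 3, 5 without BG replicate 5 and 0 without BG replicate 7. With cells that also passed a second gate kept in their class (4705 BG and 4886 control LSECs), 0 members differed in each of the 4 comparisons, with 2 to 5 at an unadjusted p under 0.05, and DESeq2 was not run on these terms. In that setting 0 of 12614 tested genes differed for T cells and 0 of 10578 for NK cells. For B cells it was 1 of 11548 genes, and for monocytes and monocyte-derived macrophages 9 of 10388. The fold changes of Fos and Jun in LSECs were then -0.17 and -0.13.

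Kupffer cells were set against 4 other classes in the same way. Their response differed from that of LSECs in Jun (-1.35 ± 0.21, edgeR adjusted p = 4.51e-07) and Atf3 (-2.10 ± 0.47, edgeR adjusted p = 0.00459), 2 of 10 members, against 0.362% of 6906 genes. The count was 1 without control replicate 2, BG replicate 5 or BG replicate 7, 5 without BG replicate 8, and 0 with cells of a second gate kept, with 1 member then at an unadjusted p under 0.05. With those cells kept, 0 of 10357 genes differed. Over all genes, leaving out these mice in that order gave 26 of 7342, 11 of 8743, 13 of 6702 and 32 of 6690. Against B cells 1 member differed, Atf3 (-1.75, edgeR adjusted p = 0.0484), against 0.303% of 7594 genes, and it was lost without control replicate 2 or BG replicate 5, 6 or 7. Atf3 had 2 to 10 UMIs per BG mouse in KCs, and in control replicate 2 it read 792 CPM, against 114 and 112 CPM in the other 2 control mice. Against T cells and against monocytes and monocyte-derived macrophages no member differed by edgeR (0.0649% of 10781 and 0.165% of 3638 genes), with 3 at an unadjusted p under 0.05 in each.

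pDCs, the main source of type I interferon among blood cells, held more Egr1 RNA after BG in the UMIs summed per mouse. Egr1, a factor that links MAP kinase signaling to growth and inflammatory genes, read 91.6, 155, 39.0 and 112 CPM in BG pDCs, against 10.6, 44.8, 12.1 and 23.5 CPM in control pDCs, from 17 to 112 UMIs per BG mouse and 4 to 30 per control mouse. BG replicate 7 lay below control replicate 2, and the other 3 BG mice lay above all control mice (2.15 ± 0.31, edgeR adjusted p = 3.76e-05). This was 1 of 9 members, against 0.599% of 6181 genes called higher, and DESeq2 gave a fold change of 2.12 with an adjusted p of 0.086. The other edgeR alternatives, each mouse left out included, kept the call. Few single cells carried the RNA: Egr1 UMIs were found in 10.8% of 493 BG pDCs and 5.18% of 656 control pDCs. With each cell thinned to 1500 UMIs these shares were 6.76% of 488 BG and 2.64% of 645 control pDCs. Most pDCs of both groups thus held no Egr1 UMI.

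The AP-1 subunits were not called in pDCs, where 0.0809% of genes were called lower and 1 member had an unadjusted p under 0.05 for a fall (edgeR, and 1 by DESeq2). Fos read 830, 730, 783 and 847 CPM in BG and 889, 859, 974 and 943 CPM in control pDCs, the 1 member in which every BG mouse lay below every control mouse (2.27% of tested genes). Nr4a1 was not tested in pDCs, with 4 to 13 UMIs per BG mouse and 3 to 5 per control mouse. LSEC markers summed to 91.1 to 123 CPM in BG pDCs and to 53.2 to 87.4 CPM in control pDCs. Egr1 averaged 441 ± 103 CPM in control LSECs themselves. The part of LSEC RNA in the pDC result was not tested.

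**Figure D3:**
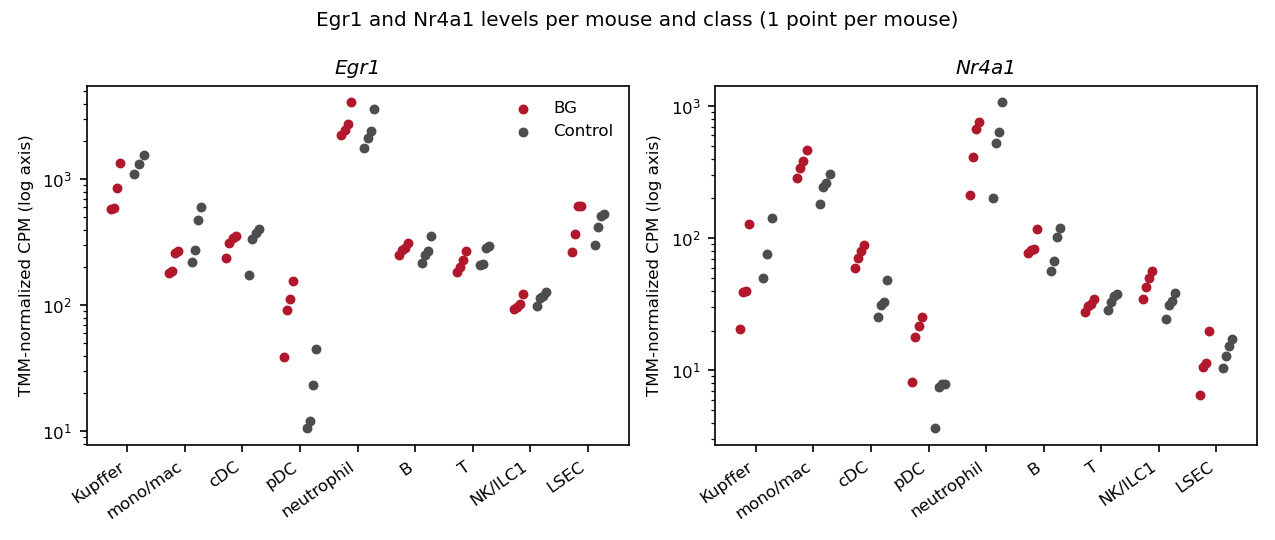
TMM-normalized CPM of Egr1 and Nr4a1 (y axis, log scale) in the 9 main classes (x axis), with 1 point per mouse and BG in red to the left of control in grey. In pDCs Egr1 lies at 39.0 to 155 CPM in BG and 10.6 to 44.8 CPM in control mice, and in cDCs every BG point of Nr4a1 lies above every control point.

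In cDCs, the antigen-presenting dendritic cells, edgeR called no member in either direction, and DESeq2 called none. The count at an unadjusted p under 0.05 was 1 for a fall and 1 for a rise, and of 2773 tested genes 0% were called lower and 0.18% higher. Nr4a1 read 80.5, 59.9, 71.0 and 88.5 CPM in BG and 33.0, 25.4, 31.3 and 48.1 CPM in control cDCs, from 9 to 17 UMIs per BG mouse and 6 to 10 per control mouse. Every BG mouse lay above every control mouse, as in 1.73% of tested genes, and the gene did not pass the test (1.13 ± 0.32, edgeR adjusted p = 0.364). In neutrophils 340 genes could be tested and no member was called by edgeR or DESeq2, with 0 at an unadjusted p under 0.05. There 0% of the tested genes were called lower and 2.65% higher, from 11 to 22 neutrophils per BG mouse and 16 to 34 per control mouse.

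The wider family of early genes was examined as lists, described by counts. Among 34 other immediate early genes, the Krüppel-like factor Klf2, which keeps T cells quiescent, and its relative Klf4 were called lower in T cells (-0.67 ± 0.15 and -0.65 ± 0.08, edgeR adjusted p = 0.0193 and 0.00042), 2 of 33 genes tested, against 0.259% of all genes tested in T cells. In KCs 3 of 22 were called lower, against 0.745% of all tested genes, Klf2, Klf4 and Klf6 (-0.87, -1.59 and -1.08), and the median over the list was -0.49 against -0.01 over all tested genes. In monocytes and monocyte-derived macrophages 5 of 29 were called lower, the same 3 factors with Cebpd and Socs3 (-0.62 to -0.80), and 1 higher, Ier3 (1.01 ± 0.23, edgeR adjusted p = 0.0102), against 0.453% of all tested genes lower and 1.74% higher. Cebpd was called higher in LSECs (0.63 ± 0.11, edgeR adjusted p = 0.00371), 1 of 33 tested, against 1.17% of all tested genes. In B and NK cells the list had a median of 0.02 and -0.14.

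Among heat shock genes, which encode chaperones, 4 were called higher in T cells and in NK cells, and 2 were called lower in KCs. Of 14 such genes, 4 were called higher in T cells: Hspe1 (0.68 ± 0.12), Hspd1 (0.62 ± 0.15), Hspa8 (0.54 ± 0.12) and Hsp90ab1 (0.52 ± 0.11), with edgeR adjusted p from 0.00638 to 0.0343, against 2.25% of all tested genes called higher. The same 4 were called higher in NK cells, of 12 tested, against 1.62% of all tested genes. In B cells 1 of 12 was called higher, Hspe1 (0.59 ± 0.13, edgeR adjusted p = 0.0137), against 1.28% of all tested genes, and in LSECs 1 of 14, Hspa8 (0.59 ± 0.12, edgeR adjusted p = 0.0119), against 1.17%. In KCs the inducible Hspa1a averaged 447 ± 34.1 CPM in BG (n = 4) and 1072 ± 282 CPM in control mice (n = 3), and Hspa1b 472 ± 152 CPM in BG and 1204 ± 254 CPM in control mice. Both were called lower (-1.19 and -1.31, edgeR adjusted p = 0.00342 and 0.00334), of 11 tested, against 0.745% of all tested genes called lower.

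Other lists held few calls. Il1b, an early cytokine gene, averaged 85.7 ± 21.7 CPM in BG and 428 ± 144 CPM in control KCs and was called lower (-2.17 ± 0.31, edgeR adjusted p = 0.000383). Cxcl10 averaged 313 ± 94.8 CPM in BG and 131 ± 18.9 CPM in control LSECs and was called higher (1.23 ± 0.17, edgeR adjusted p = 0.000158). The list of 15 further AP-1 partners had a median log2 fold change of -0.08 in T cells. In T cells the Egr and Nr4a relatives had a median log2 fold change of -0.30, with 6 of 6 below 0, the other MAP kinase phosphatases one of -0.10, with 6 of 7 below 0, and the upstream kinases and factors one of -0.01, with 9 of 18 below 0. EdgeR called no gene of these 3 lists in T cells, with 2 in each at an unadjusted p under 0.05, and DESeq2 was not summarised over lists.

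Depth and the mitochondrial share of a cell were compared with the result, since both can differ between libraries. T cells had a median of 3176 UMIs in BG and 2703.5 in control mice, and a median mitochondrial share of 15.9% in BG and 14.8% in control mice. Their part in the result was not tested beyond the following values. Within T cells of 0 to 10% mitochondrial UMIs, Fos averaged 727 ± 78.0 CPM of non-mitochondrial UMIs in BG and 1208 ± 56.5 in control mice (SD, n = 4 each). Between 10 and 20% it averaged 813 ± 61.9 in BG and 1226 ± 25.4 in control mice, and between 20 and 30% it averaged 833 ± 126 in BG and 1247 ± 28.6 in control mice. In each of the 3 ranges every BG mouse lay below every control mouse for Fos, and the same held for Jun and Jund. In LSECs the groups overlapped for Fos in all 3 ranges.

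**Figure D4:**
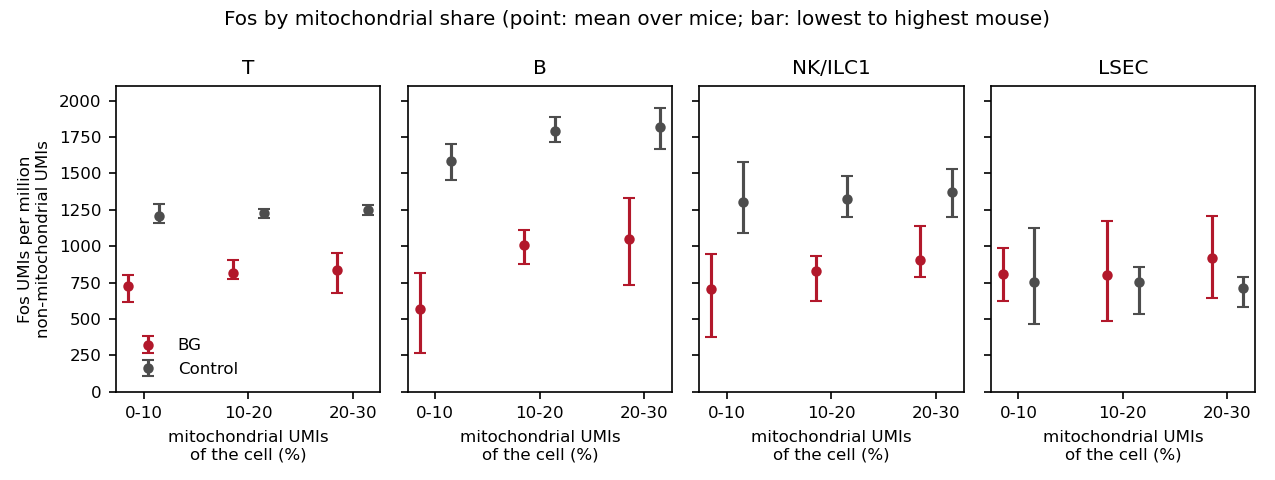
Fos level in CPM of non-mitochondrial UMIs (y axis) by the mitochondrial share of the cell (x axis, 3 ranges in percent) in T, B and NK cells and LSECs. Points are means over 4 mice and bars run from the lowest to the highest mouse, BG in red to the left of control in grey; T cells of BG mice stay near 727 to 833 and those of control mice near 1208 to 1247, and LSEC bars overlap.

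Barcodes left out of the analysis, with fewer than 200 detected genes or over 30% mitochondrial UMIs, were examined for the same genes, as CPM of non-mitochondrial UMIs. They numbered 3866 to 23225 per BG library and 4573 to 8797 per control library. Fos read 771 to 1067 in BG and 1180 to 1333 in control libraries, and Jun 814 to 929 in BG and 1018 to 1390 in control libraries. Fosb read 509 to 700 in BG and 772 to 909 in control libraries, and Jund 1045 to 1429 in BG and 1747 to 2053 in control libraries. In each of these 4 genes every BG library lay below every control library, against 2.85% of the 11656 genes with at least 100 UMIs in these barcodes. The other 6 members overlapped, as Egr1 did with 321 to 523 in BG and 323 to 379 in control libraries. In kept cells Fos read 863 to 1098 in BG and 1340 to 1409 in control libraries by the same measure. The share of free RNA in the levels of the kept cells was not tested.

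At a fixed depth of 1500 UMIs per cell, Fos and Jun were seen together in 27.2% of 8626 BG T cells and 40.9% of 10460 control T cells (47.7% of BG and 57.8% of control cells without thinning). Among single BG mice the share was 24.5% to 29.3%, and among control mice 40.0% to 42.5%. In LSECs it was 30.3% of 2176 BG cells and 26.1% of 1788 control cells (36.5% of BG and 28.9% of control cells without thinning). No class measured here is known to lack Fos, so no background share can be given, and 277 BG and 416 control T cells and 472 BG and 562 control LSECs were too shallow to enter.

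The order of the mice was compared across classes, and it was steady for some mice only. The mean deviation of the members from their group's mean was above 0 for BG replicate 5, the library with the largest mitochondrial share, in 9 of 9 main classes, and it was the highest BG mouse in 5 of them. Control replicate 4 was above its group's mean in 6 of 9 and control replicate 1 in 1 of 8. Control replicate 2 and BG replicate 7 were above it in 5 of 9, control replicate 3 and BG replicate 8 in 3 of 9, and BG replicate 6 in 2 of 9. BG replicate 8 was the highest BG mouse in KCs and the lowest in T cells and LSECs. Over 71 mouse by class values, the genes whose deviations were most like those of the 8 members tested in every main class were Zfp36 (Pearson r = 0.53), Klf2 (0.52), Btg2 (0.51), Rpl27a (0.48) and Ier5 (0.47), of 228 genes compared. Without neutrophils, over 63 values and 1201 genes, they included Ppp1r15a (0.65), Zfp36 (0.62), Rbm39 (0.52) and Sarnp (0.52). The values share their libraries, and the correlations are given as a description.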

How the data were processed

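Livers of 4 BG and 4 control mice were profiled by droplet scRNAseq (10x 3' chemistry), 1 library per mouse. The authors deposited raw UMI counts per gene and barcode, made with Cell Ranger (version 6.1.2 in the file headers) against mm10 with intronic reads counted, not normalized and with 1 matrix per library. Kept cells had 200 to 2500 detected genes and at most 30% mitochondrial UMIs. The upper limit on genes was the only step against doublets, beside the removal of cells that still passed more than 1 gate after the rules for overlapping gates.

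Each kept cell was gated by markers, because no cell annotation was used here, so these classes need not match the clusters of the study. UMI counts were summed per mouse and class (at least 10 cells per mouse and 3 mice per group), and edgeR 4.0.16 (TMM, filterByExpr, quasi-likelihood test) was fitted on all genes of a class in R 4.3.3. Differences between classes were fitted as a class by treatment term with mouse as a block. The 10 members were all named. Of the gene lists (AP-1 partners, Egr and Nr4a relatives, other immediate early genes, MAP kinase phosphatases, upstream kinases and factors, heat shock genes and early cytokine genes), the called genes with the smallest adjusted p were eligible for naming, at most 5 per list, class and direction. Results for some individual genes outside the members are not reported here. The members and lists were chosen with earlier results of these data known.

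Alternatives were DESeq2 1.42.0 and its size factors, no filter on low counts, no fold limit, at most 10% mitochondrial UMIs, up to 6000 detected genes, a stricter gate, cells without T cell marker UMIs and each mouse left out. Keeping cells of a second gate was added after the data had been seen. On simulated data, 84.8% of genes changed 2-fold were called in T cells (11054 genes tested), 79.7% in LSECs (9099) and 66.1% in KCs (1448). Of genes changed 1.5-fold, 43.9% were called in T cells, 43.9% in LSECs and 17.5% in KCs. P-values measure the spread between mice, 1 library each. The source material names the mice as separate animals, and cage or processing day is not given in the sources used here.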

Additional observations from a re-analysis of the deposited data

Results flagged for a closer look

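Single mice that stood apart within a group of 4 were looked for in every member and class, and 5 of 166 groups held one, where chance gives about 1 in 20. Fosb in monocytes and monocyte-derived macrophages read 562 CPM in BG replicate 5, against 377 in the next BG mouse. Ier2 in neutrophils read 1202 CPM in control replicate 1, below the 1949 of the next control mouse. Jun in cDCs read 778 CPM in BG replicate 6, and the next BG mouse read 1100. Jund in pDCs read 1345 CPM in control replicate 4 and 1042 in the next control mouse. Nr4a1 in B cells read 118 CPM in BG replicate 5 and 83.0 in the next BG mouse.

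The response to BG differed between classes, by the class by treatment term of edgeR. T cells minus LSECs gave -0.89 for Jun, -0.85 for Fos, -0.76 for Fosb, -0.60 for Junb, -0.58 for Dusp1 and -0.55 for Jund. B cells minus LSECs gave -1.02 for Fos, -0.9999 for Jun, -0.80 for Fosb and -0.63 for Jund. NK cells minus LSECs gave -0.85 for Fos, -0.83 for Jun, -0.68 for Fosb, -0.56 for Junb, -0.55 for Dusp1 and -0.49 for Jund. Monocytes and monocyte-derived macrophages minus LSECs gave -1.09 for Fosb, -0.84 for Jun and -0.67 for Fos. KCs minus LSECs gave -2.10 for Atf3 and -1.35 for Jun, and KCs minus B cells gave -1.75 for Atf3.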

How the results depend on the processing

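Over the 26 called pairs of a member and a class, 379 alternative values were computed, of which 347 kept the call, 32 lost it and 0 changed sign, and 13 pairs kept it under each alternative that was run. With cells of a second gate kept, an alternative chosen after seeing the data, the count of members called lower was 0 in KCs and 0 in monocytes and monocyte-derived macrophages, and 0 members differed between KCs and B cells, KCs and LSECs, and T cells, B cells, NK cells or monocytes and monocyte-derived macrophages and LSECs. Over all genes, 5 of 5232 were then called lower in KCs and 10 of 5964 in monocytes and monocyte-derived macrophages. Between 0 and 9 genes differed in each of these comparisons. The cause was not tested. Without the filter on low counts, the count called lower was 2 in KCs, 4 in monocytes and monocyte-derived macrophages, 1 in cDCs and 3 in CD4 T cells, 1 member was called higher in monocytes and monocyte-derived macrophages, and 0 differed between KCs and B cells. Under the stricter gate it was 4 in monocytes and monocyte-derived macrophages and 3 in CD4 T cells, and 0 members differed between KCs and B cells. At 10% mitochondrial UMIs it was 0 and 3 in these classes. In cells without T cell marker UMIs 1 member was called higher in monocytes and monocyte-derived macrophages, DESeq2 called 0 higher in pDCs, and 4 were lower in CD8 T cells without the fold limit.

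With 1 mouse left out, the count called lower was 1 to 3 in KCs, 1 to 5 in monocytes and monocyte-derived macrophages (0 to 1 higher), 3 to 4 in T cells, 2 to 5 in CD4 T cells, 2 to 3 in CD8 T cells and 2 to 4 in NKT-like cells. The count that differed was 0 to 1 for KCs and B cells, 1 to 5 for KCs and LSECs, and, against LSECs, 2 to 7 for T cells, 2 to 6 for NK cells, 4 to 6 for B cells and 0 to 5 for monocytes and monocyte-derived macrophages. Among the fold changes recomputed singly, which do not cover every member in every class, those that turned were uncalled ones of LSECs with cells of a second gate kept (-0.17 for Fos, -0.29 for Fosb, -0.13 for Jun and -0.32 for Jund) or at 10% mitochondrial UMIs (-0.52 for Fosb and -0.10 for Jun), and with 1 mouse left out Fosb (-0.065 to 0.30) and Jund (-0.062 to 0.092) in LSECs. The number of tested members below 0 also moved elsewhere, as in B cells (7 of 10, and 10 of 10 without control replicate 4) and cDCs (9 of 10, and 6 of 9 under the stricter gate).

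No paired analysis was possible because control mice carry the numbers 1 to 4 and BG mice 5 to 8, with none shared. Small classes limit what was detectable: in KCs, with 8 to 68 cells per control mouse, changes of 1.5-fold were mostly missed in simulated data.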
